A study of Mus musculus with 5 samples.

Results

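Bone morphogenetic protein (BMP) signals and hepcidin were followed through 9 genes of the 31053 counted in each library. The ligand genes Bmp2 and Bmp6 were read in endothelial barcodes, and the 7 target genes Hamp, Hamp2, Id1, Id2, Id3, Smad6 and Smad7 were read in hepatocyte barcodes. The genes were chosen by name and role, with earlier results of these data known; no threshold on a measured value entered the rule. The study profiled dissociated liver cells of C57BL/6J mice by droplet single-cell RNA sequencing (10x v3 chemistry, sequenced on a NovaSeq). There were 5 libraries, 1 per group: untreated mice at postnatal day 14 (P14), an untreated adult control of 8 weeks, and adults, also of 8 weeks, taken 24 h, 48 h and 96 h after removal of most of the liver by partial hepatectomy (PHx). No transgene, deletion or drug is named for any group. The number of mice behind each library and their sex are not stated in the labels. The treatment text names sample 2 among the operated mice, while its title, source and characteristics call it the adult control with no treatment; it was used here as the control, the control library. The sequencing code of the adult control ends in L002 and those of the other 4 libraries in L001, so this code and the control library cannot be told apart.

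BMP ligands of the liver are made mainly by the endothelial cells that line the sinusoids, and they act on neighbouring hepatocytes. There they bind type I and type II receptors with the co-receptor hemojuvelin, the receptors phosphorylate SMAD1, SMAD5 and SMAD9, and these join SMAD4 to switch on target genes. Among the targets is Hamp, which encodes hepcidin, the hormone that lowers the release of iron into blood by blocking the iron exporter ferroportin; ID1 to ID3 are inhibitors of basic helix-loop-helix transcription factors, and SMAD6 and SMAD7 are inhibitory SMADs that dampen the pathway. Hamp also responds to interleukin 6 through STAT3 in the acute phase.

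A barcode was called hepatocyte when it held at least 5000 UMIs (unique molecular identifiers, 1 per captured RNA molecule), 10 to 30% of them mitochondrial and at least 1% of them Alb, Apoa1 and Ttr. This gave 925 barcodes in the control library, 1170 at 24 h, 719 at 48 h, 771 at 96 h and 2106 at P14. A barcode was called endothelial when it held at least 1000 UMIs from at least 500 genes, under 30% of them mitochondrial, UMIs of at least 3 of the 7 genes Stab2, Ptprb, Gpr182, Kdr, Egfl7, Clec4g and Oit3, and none of the leukocyte gene Ptprc. This gave 79, 181, 66, 99 and 58 barcodes in the same order. The rule selects on the 7 endothelial markers, so their presence in the endothelial barcodes is no support for the class. Their summed level was between 2247 and 7669 UMIs per 1000000 (CPM). In hepatocyte barcodes the same sum was between 9.75 and 19.8 CPM. Levels are summed UMIs over the barcodes of a class, as CPM without mitochondrial genes, with exact Poisson 95% intervals in brackets; these cover counting error only, and with 1 library per group no difference between groups could be tested.

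The libraries differed in depth and in RNA outside cells. Total UMIs were between 80927744 and 136110607. Median UMIs per hepatocyte barcode were 18527 in the control library, 19562, 35432 and 22075 at 24, 48 and 96 h, and 38922.5 at P14. The 40000 barcodes of the plateau below the cells, taken as empty droplets, held a mean of 1328 UMIs in the control library and of 290 at 48 h. That mean was 0.818 to 7.17% of a hepatocyte barcode's median and 5.62 to 73.4% of an endothelial barcode's median, highest in the control library in both classes. Between 5 and 18 endothelial barcodes per library also met the hepatocyte rule. Libraries shared at most 2 hepatocyte barcodes. P14 hepatocytes held Xist at 840 CPM and none of the Y-linked gene Ddx3y, while the 4 adult libraries held Xist at 0 to 0.0744 CPM and Ddx3y at 112 to 140 CPM. Age and this difference cannot be told apart in any comparison with P14.

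Hamp and Hamp2 lie close together on mouse chromosome 7 (GRCm38), on the minus strand, at 30942368 to 30944029 and 30922372 to 30924181. They are near copies: the 410 bases of the annotated Hamp transcript match the Hamp2 transcript at 388 positions (94.6%), with a longest shared run of 87 bases, so the split of reads between the pair is uncertain. Their windows of 250 bases before the annotated start are shown because both genes are on the target list and yet took different courses across the libraries. The sequences are from RefSeq (GRCm38.p6), read 5′ to 3′ on the gene's strand; capitals mark matches to GGCGCC, a core bound by BMP-responsive SMADs, and to TTCNNNGAA, the core bound by STAT factors.
Hamp, chr7:30944030-30944279, minus strand: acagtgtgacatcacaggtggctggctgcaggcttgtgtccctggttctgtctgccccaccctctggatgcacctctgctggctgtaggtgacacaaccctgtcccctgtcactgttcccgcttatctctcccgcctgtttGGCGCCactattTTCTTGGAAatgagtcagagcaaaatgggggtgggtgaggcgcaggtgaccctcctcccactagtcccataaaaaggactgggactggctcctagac
Hamp2, chr7:30924182-30924431, minus strand: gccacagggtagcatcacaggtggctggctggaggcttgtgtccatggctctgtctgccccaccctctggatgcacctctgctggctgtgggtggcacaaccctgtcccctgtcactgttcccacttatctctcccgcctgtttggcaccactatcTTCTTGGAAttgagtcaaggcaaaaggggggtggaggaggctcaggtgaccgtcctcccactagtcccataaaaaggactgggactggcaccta
In the Hamp window GGCGCC begins 109 bases before the start and TTCTTGGAA 97 bases before it. The Hamp2 window holds the same TTCTTGGAA, 94 bases before its start, and GGCACC where Hamp has GGCGCC, the change G145A counted from the first base of the Hamp window. Over 247 aligned positions the windows were identical at 227 (91.9%). Both motifs read the same on both strands and do not overlap each other here; of 32851 promoter windows of this length, GGCGCC was found in 9.59%, TTCNNNGAA in 7.02% and both in 0.368%. Windows were read for 6 of the 9 genes (Hamp, Hamp2, Id2, Id3, Smad6 and Bmp6). The Id2 window held GGCGCC, 231 bases before its start, and those of Id3, Smad6 and Bmp6 held neither motif. A match is a string of letters and was not tested as a binding site.

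The ligands came first. Bmp2 (chromosome 2, 133552159 to 133562896), a ligand of sinusoidal endothelium, was found in endothelial barcodes of every library. Its level was 582 CPM [492, 683] in the control library from 150 UMIs, 1050 CPM [975, 1129] at 24 h, 1590 CPM [1475, 1711] at 48 h, 662 CPM [579, 754] at 96 h and 130 CPM [108, 156] at P14. Its counting intervals at 24 h and 48 h lay above that of the control library, the interval at 96 h overlapped it, and that of P14 lay below all the others. Relative to the adult control, Bmp2 was 2.73-fold higher at 48 h, past the 2-fold mark used here as a call (log2 of (CPM + 1) ratios of at least 1 in size, with at least 5 CPM in either library). It was 1.80-fold higher at 24 h and 1.14-fold higher at 96 h, short of that mark, and 4.47-fold lower at P14.

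Bmp2 belonged to the endothelial barcodes in each library. In hepatocyte barcodes it was between 0.712 and 3.33 CPM, in immune barcodes (Ptprc with other leukocyte genes and no endothelial marker) between 0 and 2.47 CPM, and in empty droplets between 2.65 and 16.9 CPM. With every endothelial barcode thinned to 700 UMIs, 21.5% [13.1, 32.2] held a Bmp2 UMI in the control library, 44.2% [36.8, 51.8] at 24 h, 54.5% [41.8, 66.9] at 48 h, 27.3% [18.8, 37.1] at 96 h and 13.8% [6.15, 25.4] at P14 (exact binomial intervals). Before thinning the shares were 36.7, 67.4, 87.9, 48.5 and 55.2%, at median depths of 1811, 1989, 3529, 1865 and 8298 UMIs. In immune barcodes thinned to the same depth the share was at most 0.19%, at unthinned medians between 4620.5 and 7916 UMIs.

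**Figure D1:**
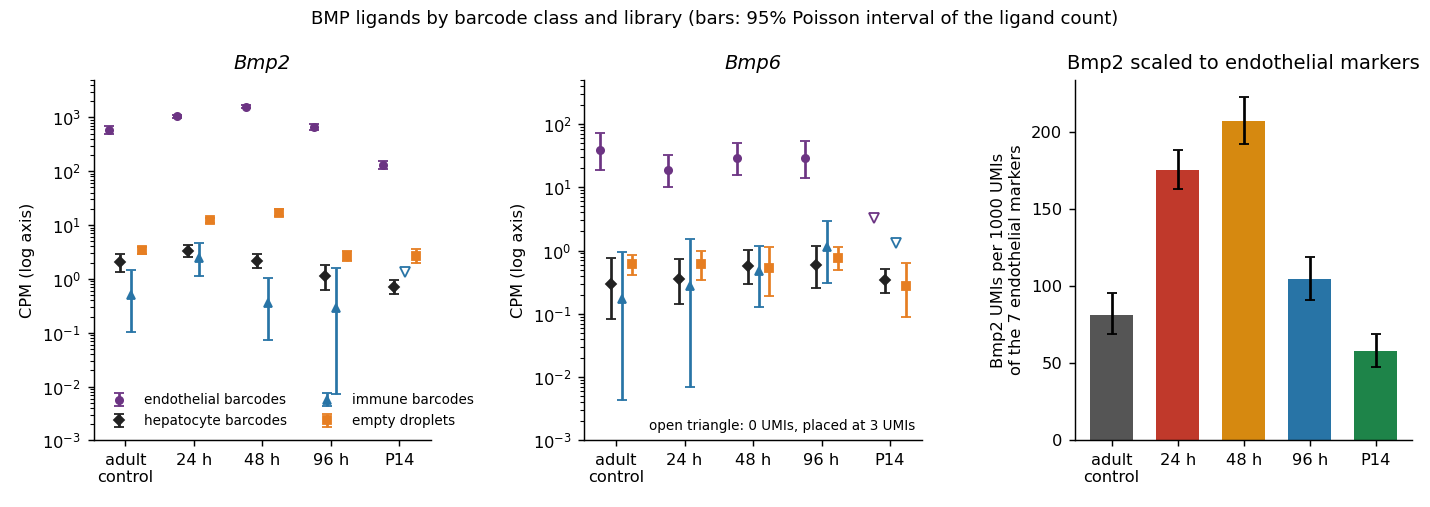
Left and middle: Bmp2 and Bmp6 levels (CPM, log axis) in endothelial, hepatocyte and immune barcodes and in empty droplets of each library, with Poisson 95% intervals; open triangles mark 0 UMIs, drawn at the level of 3 UMIs. Right: Bmp2 UMIs per 1000 UMIs of the 7 endothelial markers. Endothelial Bmp2 lies above the other classes in all 5 libraries, and the marker-scaled bars run from 57.9 at P14 to 207.3 at 48 h.

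The makeup of the endothelial barcodes also differed between libraries. The 7 endothelial markers summed to 2247 CPM at P14 against 7131 CPM in the control library, and Alb, Apoa1 and Ttr to 87672 against 21518 CPM. In hepatocyte barcodes those 3 genes were also higher at P14, at 146536 against 39543 CPM. Of the endothelial barcodes, 18 of 58 at P14 and 5 of 79 in the control library also met the hepatocyte rule. Leaving out those with 5% or more Alb, Apoa1 and Ttr kept 38 of 58 at P14 and 79 of 79 in the control library. The part of hepatocyte RNA in the P14 endothelial values was not tested. Scaled to the endothelial markers, Bmp2 was at 81.6 UMIs per 1000 marker UMIs in the control library, 175.5 at 24 h, 207.3 at 48 h, 104.6 at 96 h and 57.9 at P14. On that scale the 24 h level was past 2-fold (log2 1.10), the 48 h level stayed past it (1.34), and the P14 level was lower by less than 2-fold (log2 −0.49). With the mean empty droplet subtracted from each endothelial barcode, the Bmp2 log2 ratios over the adult control were 0.38, 0.77, −0.19 and −2.85, which left 48 h short of 2-fold. Without endothelial barcodes that held 5% or more Alb, Apoa1 and Ttr, the P14 log2 ratio was −0.98. The 48 h endothelial barcodes also carried red cell RNA, with 6 erythroid genes at 17623 CPM against 617 CPM in the control library, and its part in the 48 h level was not tested. Of 17 genes that respond to tissue dissociation 10 were past 2-fold higher in the 48 h endothelial barcodes, where 18.1% of all genes were. At 24 h 3 were higher and 2 lower, against 15.8% and 13.9% of all genes, at 96 h 1 and 5 (16.4% and 13.2%) and at P14 2 and 5 (17.6% and 19.1%). The 17 summed to 1462 CPM in the control library and to 1678, 2316, 1039 and 1299 CPM at 24, 48 and 96 h and P14. Their part in the Bmp2 levels was not tested. Of the 9 Kupffer cell markers 3 reached 5 CPM, and 2 were past 2-fold higher and 1 lower at 24 h and at 48 h. The higher ones, C1qa and C1qb, stood at 62.2 and 251 CPM at 48 h and at 76.7 and 272 CPM at 24 h, against 7.76 and 34.9 CPM in the control library, while the lower one, Cd5l, rested on 2 UMIs in the control library and none in the others. The defining Clec4f and Timd4 were at 0 in all 5 libraries; the 9 summed to 29.8 CPM at P14 and to 350 CPM at 24 h.

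Within each library Bmp2 was higher in endothelial barcodes with a UMI of Wnt2, Wnt9b or Rspo3, signals of the endothelium around the central vein. Those barcodes were 17 of 79 in the control library, 84 of 181 at 24 h, 42 of 66 at 48 h, 26 of 99 at 96 h and 20 of 58 at P14. Bmp2 stood at 1071 against 368 CPM in the control library, a ratio of 2.91 [2.08, 4.08]. The ratio was 4.08 [3.39, 4.93] at 24 h, 7.97 [6.21, 10.4] at 48 h, 3.70 [2.76, 5.01] at 96 h and 3.9 [2.66, 5.78] at P14. Barcodes with such a UMI were deeper (median 4688 against 1747.5 UMIs in the control library, 4815.5 against 2486.5 at 48 h), which by itself makes a UMI of these genes likelier. Per 1000 endothelial marker UMIs the pairs were closer: 113 with and 60.2 without in the control library, then 198 and 120 at 24 h, 209 and 190 at 48 h, 124 and 75.6 at 96 h, and 51.6 and 71.7 at P14, where the order turned. Barcodes without those UMIs held Bmp2 at 368, 415, 334 and 317 CPM in the 4 adult libraries, and those with them at 1071, 1691, 2657 and 1170 CPM. Per 1000 endothelial marker UMIs the barcodes without them were not level, at 60.2, 120, 190 and 75.6. Their marker UMIs were 1096 beside 179417 non-mitochondrial UMIs in the control library and 363 beside 206865 at 48 h. The list of 6 central endothelial genes (Wnt2, Wnt9b, Rspo3, Kit, Cdh13, Thbd) summed to 605 CPM in the control library and to 3521, 2054, 824 and 460 CPM at 24, 48 and 96 h and P14; 5 of the 6 were past 2-fold higher at 24 h and 5 at 48 h, against 15.8% and 18.1% of all endothelial genes. The list of 5 portal endothelial genes (Efnb2, Ltbp4, Dll4, Msr1, Adgrg6) summed to 694 CPM in the control library and to 259, 191, 610 and 222 CPM in the same order, with 4 of 5 past 2-fold lower at 24 h, at 48 h and at P14, against 13.9%, 14.8% and 19.1% of all endothelial genes. The endothelial barcodes sampled at each time thus differed in these position genes, and the part of this in the Bmp2 levels was not tested.

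Bmp6 (chromosome 13, 38345716 to 38500314), the ligand that rises with liver iron, was scarce. It gave 10, 13, 13 and 10 UMIs in the endothelial barcodes of the control library, 24 h, 48 h and 96 h libraries, or 38.8 CPM [18.6, 71.3], 18.8 [10.0, 32.2], 28.9 [15.4, 49.4] and 29.0 [13.9, 53.4]. These intervals overlapped, and the 24 h value sat at the 2-fold mark itself (log2 −1.0). No Bmp6 UMI was found in the 58 P14 endothelial barcodes, which allows a share of up to 5.17% of barcodes with a UMI (3 of 58; the exact binomial upper bound is 6.16%), a limit that does not cover cells expressing the gene at a lower level. A floor of 3 UMIs over the group would be 11.7-fold below the adult control value in CPM and 3.69-fold below it per endothelial marker UMI. These ratios leave out the counting error of the 10 control library UMIs. With that error included and no CPM added, the upper end of the log2 ratio in CPM was −2.98, a smaller fall. Hepatocytes held Bmp6 at 0.300 to 0.595 CPM.

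Of the 2 ligands, 0 were higher and 1 lower past 2-fold at 24 h, where 15.8% of 10583 endothelial genes were higher and 13.9% lower (29.7% in either direction). At 48 h 1 was higher and 0 lower, against 18.1% and 14.8% of 10651 genes (32.9%). At 96 h neither was past 2-fold, against 16.4% and 13.2% of 10850 genes (29.6%), and at P14 both were lower, against 17.6% higher and 19.1% lower of 10977 genes (36.7%). With 58 to 181 barcodes a library, differences of this size were common among all endothelial genes. Among 14 other ligands of the family, Inhbb, which encodes a subunit of activin B, was at 23.3 CPM in endothelial barcodes of the control library and at 161, 99.9, 37.7 and 30.9 CPM at 24, 48 and 96 h and P14. Bmp4 was at 11.6, 1.45, 0, 0 and 37.5 CPM. The control library and 24 h values rested on few UMIs, since 1 UMI of the control library is 3.88 CPM and 3 UMIs at 24 h are 4.34 CPM. The P14 value came from a larger total, 906534 UMIs against 257880 in the control library.

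**Figure D2:**
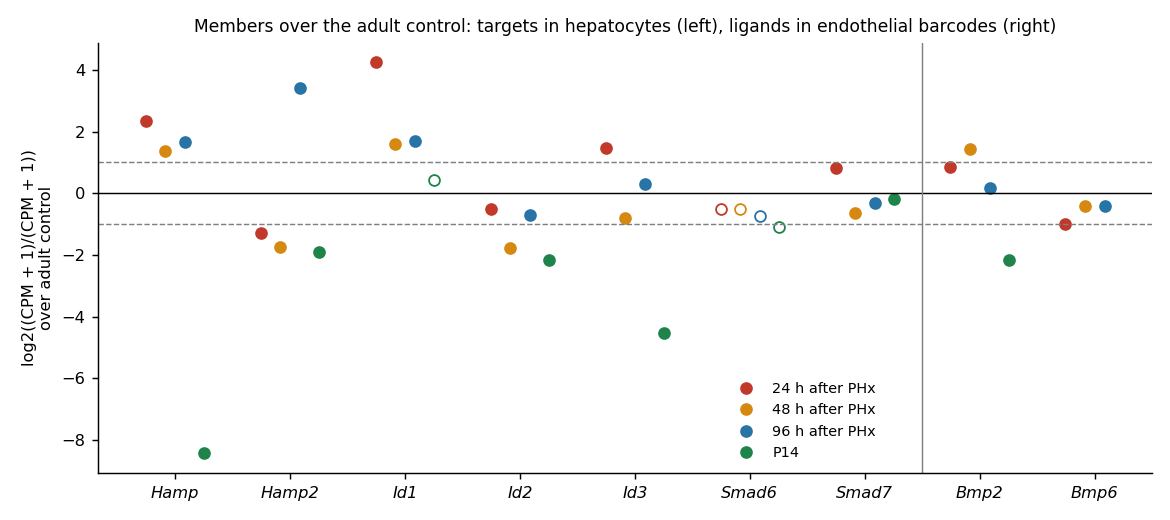
Each point is the log2 ratio of (CPM + 1) of a library over the adult control, for the 7 targets in hepatocyte barcodes and the 2 ligands in endothelial barcodes; dashed lines are 2-fold, open points are genes under 5 CPM in both libraries, and Bmp6 at P14 (0 UMIs) is not drawn. Hamp and Id1 lie above the upper line at all 3 times after PHx, Hamp2 only at 96 h, and Hamp is lowest of all at P14.

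Of 14 receptors and co-receptors 9 reached 5 CPM in hepatocytes, and 0 of these 9 were past 2-fold at 24, 48 or 96 h and 1 at P14. Of all hepatocyte genes 15.6, 15.9, 5.95 and 21.7% were past 2-fold at those times, shares at which few or none of 9 genes would be, so these counts do not set the receptors apart. Bmpr1a, a type I receptor, was at 36.8, 31.7, 29.4, 30.7 and 23.9 CPM in the control library, at 24, 48 and 96 h and at P14. Hemojuvelin (listed under its older symbol Hfe2) was at 53.9, 55.5, 84.0, 77.4 and 46.2 CPM, and Tfr2, the transferrin sensor, at 327, 265, 261, 267 and 266 CPM. The exception was Hfe, the partner of TFR2 altered in haemochromatosis, at 32.6 CPM in the control library and 13.0 CPM at P14 (log2 −1.27).

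Of 11 SMADs and co-regulators, 2 were higher and 2 lower at 24 h, 1 and 1 at 48 h, 0 and 0 at 96 h, and 1 and 2 at P14, beside the same shares of all hepatocyte genes (15.6, 15.9, 5.95 and 21.7%). Smad1, a receptor-activated SMAD of the BMP branch, was at 30.9 CPM in the control library, 75.2 at 24 h, 39.5 at 48 h, 31.3 at 96 h and 13.3 at P14. It was past 2-fold higher only at 24 h (log2 1.26) and past 2-fold lower at P14 (log2 −1.15). Smad4, the common partner, stayed between 24.1 and 38.1 CPM, and the repressor Skil was at 10.6, 28.1, 27.6, 11.8 and 32.8 CPM in the same order of libraries.

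The inhibitor Tmprss6, a protease that cleaves hemojuvelin and so lowers hepcidin, was at 355 CPM in the control library. It was at 144 CPM at 24 h and 150 CPM at 48 h (log2 −1.30 and −1.23), and at 250 and 258 CPM at 96 h and P14, short of 2-fold.

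Hepcidin itself was the widest-ranging target. Hamp stood at 429 CPM [418, 440] in hepatocytes of the control library from 5713 UMIs, at 2188 CPM [2167, 2209] at 24 h, 1114 CPM [1100, 1128] at 48 h, 1371 CPM [1351, 1391] at 96 h, and 0.248 CPM [0.142, 0.402] at P14, where 16 UMIs were found among 2106 barcodes. No pair of these intervals overlapped. Hamp was 5.10-fold higher than the adult control at 24 h, 2.60-fold at 48 h and 3.19-fold at 96 h (log2 2.35, 1.37 and 1.67). At P14 it was 1731-fold lower (log2 −8.43 on the scale with 1 CPM added).

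The share of hepatocytes with Hamp followed the same split. Thinned to 3500 UMIs, 55.1% [51.9, 58.4] of control library hepatocytes held a Hamp UMI, 82.2% [79.9, 84.4] at 24 h, 75.4% [72.1, 78.5] at 48 h, 83.7% [80.9, 86.2] at 96 h and 2 of 2106 at P14 (0.095%). Unthinned, the shares were 82.1, 95.7, 94.2, 96.9 and 0.475%. Free Hamp RNA was present in the adult libraries: empty droplets held 225, 1594, 962 and 2170 CPM of Hamp in the control library and at 24, 48 and 96 h, and 0.441 CPM at P14. In immune barcodes thinned to 700 UMIs the share with Hamp was 3.82, 16.6, 5.40, 23.4 and 0%, and their Hamp level was 80.6, 326, 161, 417 and 0.443 CPM. With the mean empty droplet subtracted from each hepatocyte barcode, the Hamp log2 ratios were 2.30, 1.31, 1.57 and −8.50. In hepatocytes with 0 immune and 0 endothelial marker UMIs they were 1.92, 0.91, 1.48 and −8.63, which left 48 h short of 2-fold. Raising the hepatocyte marker minimum to 5% kept 47, 6, 2, 545 and 2106 barcodes from the adult control to P14 and gave 0.74, −0.32, 0.94 and −9.25, so that at 48 h, on 2 barcodes, the direction turned; Id1 at 48 h was then at log2 0.00.

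**Figure D3:**
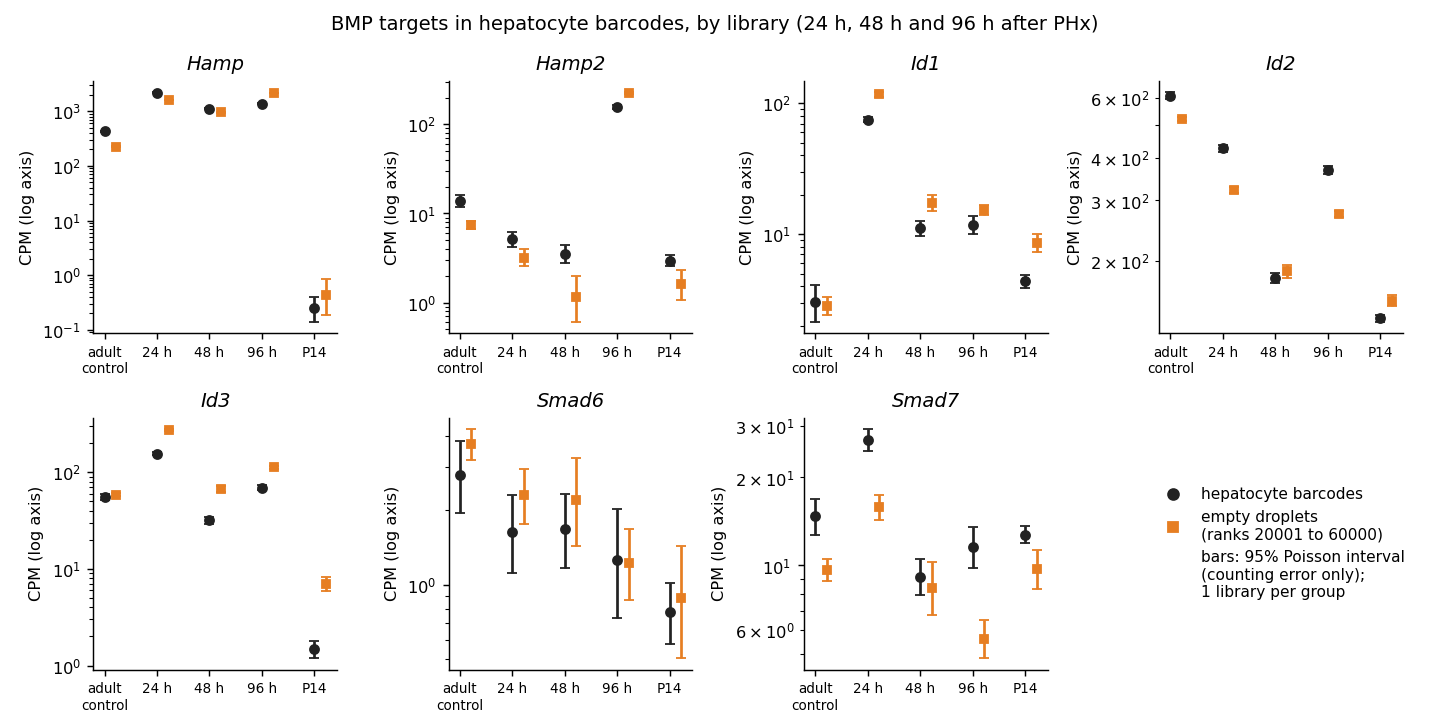
Levels of the 7 target genes (CPM, log axes) in hepatocyte barcodes (black circles) and in empty droplets (orange squares) of the 5 libraries; bars are Poisson 95% intervals of the summed UMIs. In hepatocytes Hamp is highest at 24 h (2188 CPM) and lowest at P14 (0.248 CPM), Hamp2 is highest at 96 h (157 CPM) and Id1 at 24 h (75.1 CPM).

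Hamp varied widely from barcode to barcode. In hepatocytes thinned to 3500 UMIs the 10th percentile, median, 90th percentile and maximum were 0, 1, 4 and 22 UMIs in the control library. They were 0, 3, 17 and 59 at 24 h, 0, 2, 10 and 42 at 48 h, and 0, 3, 11 and 38 at 96 h. The variance over the mean was 3.33, 10.8, 7.21 and 6.23, where 1 is the value of pure counting noise. It was 1.06 to 1.13 for Id2 in the same libraries, 4.05 in the control library and 3.38 at 96 h for the scarcer Hamp2, and 19.7, 13.6, 13.1 and 33.1 for the far more abundant albumin (Alb). The tenth of barcodes with most Hamp held 44.1, 41.3, 43.9 and 37.8% of the Hamp UMIs, against 17.4 to 19.6% for albumin in those libraries and, for the scarcer Id3, 64.4% in the control library, 39.8% at 24 h, 88.7% at 48 h and 59.5% at 96 h. Barcodes with at least 8 Hamp UMIs numbered 19 of 925 in the control library, 333 of 1170 at 24 h, 105 of 719 at 48 h, 150 of 771 at 96 h and 0 at P14.

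**Figure D4:**
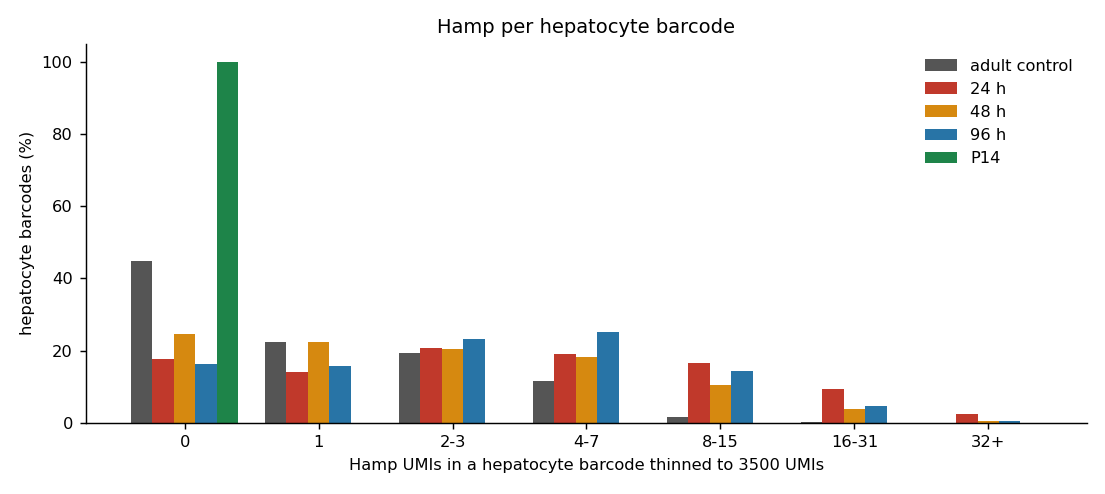
Percent of hepatocyte barcodes (vertical axis) by number of Hamp UMIs after thinning to 3500 UMIs (horizontal axis), for each library. P14 sits almost wholly at 0, and 621 of 925 adult control barcodes at 0 or 1. Barcodes with 16 or more UMIs number 3 in the control library and 140, 30 and 40 after PHx, by time.

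Hamp and division were set side by side, since many hepatocytes divide after PHx. Barcodes with at least 3 of 24 mitosis genes after thinning were 6 in the control library, 177 at 24 h, 298 at 48 h, 79 at 96 h and 247 at P14; those with 0 numbered 860, 692, 275, 569 and 1525. At 24 h Hamp was at 3677 CPM in the first and 1641 CPM in the second, a ratio of 2.24 [2.19, 2.29]. At 48 h the ratio was 1.43 [1.39, 1.48], and at 96 h it was below 1, at 0.577 [0.546, 0.609]. Dividing barcodes were deeper at each of these times (median UMIs 18541 and 14258 at 24 h, 31382 and 23709 at 48 h, and 21841 and 14959 at 96 h). Among barcodes with 0 mitosis genes alone, the Hamp log2 ratios over the adult control were 1.94, 0.96, 1.76 and −8.47, so the 48 h value was short of 2-fold there.

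Position along the lobule was read by ranking the hepatocytes of each library on a score of periportal over pericentral genes and cutting the ranking in 3 equal groups, which are ranges of a score and not cell types. In the adult control 171 of 925 barcodes lay within 0.25 log2 of a cut, and the pericentral enzyme Cyp2e1 stood at 4904, 1004 and 372 CPM from the pericentral to the periportal group. Hamp was at 517, 470 and 295 CPM over these groups in the control library, a pericentral to periportal ratio of 1.75 [1.64, 1.88]. It was at 1757, 2752 and 2013 CPM at 24 h, highest in the middle, with a ratio of 0.872 [0.851, 0.895]. At 48 h it was at 1196, 1334 and 811 CPM (ratio 1.47 [1.43, 1.53]), and at 96 h at 1289, 1413 and 1429 CPM (ratio 0.902 [0.871, 0.934]). The pericentral excess of the control library was thus seen again at 48 h and not at 24 h or 96 h. These intervals leave out the spread of Hamp between barcodes. Across thinned barcodes the rank correlation of Hamp with the score was −0.18 in the control library, 0.01 at 24 h, −0.07 at 48 h and 0.06 at 96 h. Whether these patterns differ beyond the spread between barcodes or between mice was not tested.

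**Figure D5:**
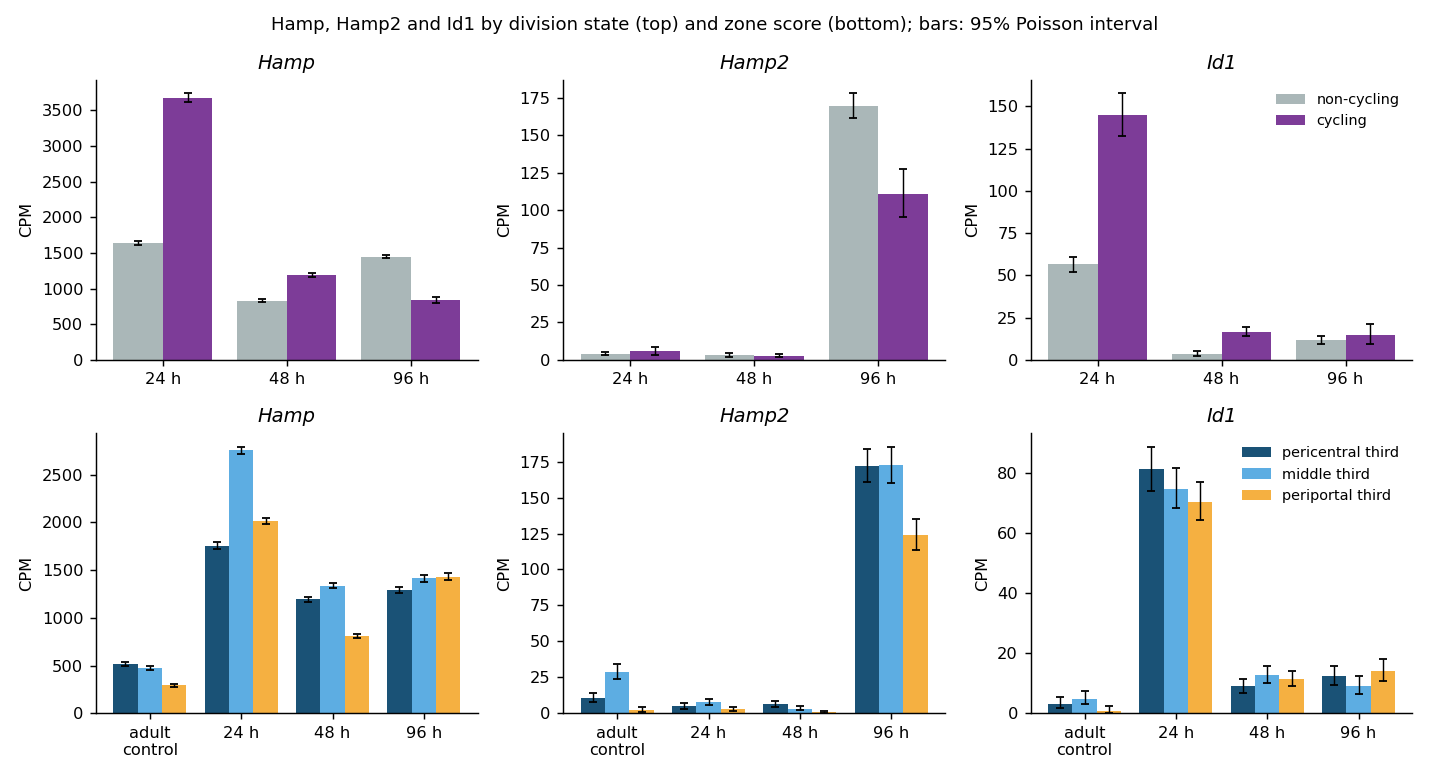
Top: Hamp, Hamp2 and Id1 levels (CPM) in hepatocyte barcodes with at least 3 mitosis genes (cycling) and with none (non-cycling) after PHx. Bottom: the same genes in the pericentral, middle and periportal groups of the adult libraries; bars are Poisson 95% intervals. Hamp is higher in cycling barcodes at 24 h (3677 against 1641 CPM) and lower in them at 96 h (835 against 1448 CPM).

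Hamp2, the neighbouring copy, did not run parallel to Hamp. It stood at 13.9 CPM [12, 16] in the control library, 5.12 [4.17, 6.23] at 24 h, 3.50 [2.75, 4.41] at 48 h, 157 [151, 164] at 96 h and 2.96 [2.55, 3.41] at P14. It was past 2-fold lower at 24 h and 48 h (log2 −1.28 and −1.73), where Hamp was higher, and 11.3-fold higher at 96 h. After thinning, 24.1% [21.1, 27.3] of the 96 h hepatocytes held a Hamp2 UMI, against 2.81, 1.20, 0.834 and 0.95% in the control library, at 24 h, at 48 h and at P14. Unthinned the shares were 48.9% at 96 h and 6.27, 5.64, 4.17 and 2.90% in the others. At 96 h free Hamp2 RNA was also high, with 223 CPM in empty droplets, and 4.8% of thinned immune barcodes held a UMI; with the empty droplet subtracted, the log2 ratio was 3.32. In barcodes with 10 to 20% mitochondrial UMIs the log2 ratios were −0.30, −0.19, 5.46 and −0.34, so the lower values at 24 h, 48 h and P14 were short of 2-fold there. In the adult control the 51 thinned Hamp2 UMIs lay in 26 barcodes, 10 of them in 1 barcode.

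At 96 h Hamp2 was found more often in barcodes with Hamp than in those without. Of 645 thinned barcodes with Hamp, 26.0% [22.7, 29.6] held Hamp2, against 14.3% [8.69, 21.6] of the 126 without. The rank correlation of the pair over the 771 barcodes, all of 1 library and thinned to 1 depth, was 0.22. The part of reads shared between the near-identical copies in this was not tested. At 24 h, where Hamp was highest, Hamp2 was found in 14 of 962 barcodes with Hamp and in 0 of 208 without [0, 1.76%]. At 48 h it was found in 5 of 542 with Hamp and 1 of 177 without. The control library had the opposite order, with 10 of 510 (1.96% [0.944, 3.58]) and 16 of 415 (3.86% [2.22, 6.19]), and a rank correlation of −0.03. Hamp2 at 96 h was at 172, 172 and 124 CPM from the pericentral to the periportal group, and at 111 CPM in dividing against 170 CPM in non-dividing barcodes, a ratio of 0.652 [0.559, 0.758]. In the control library the order was the opposite, at 129 against 12.2 CPM (ratio 10.6 [5.51, 18.7]), on 13 UMIs in 6 dividing barcodes. That interval leaves out the spread between barcodes, where Hamp2 had a variance over the mean of 4.05 in this library. The ratio of dividing to non-dividing was 1.38 [0.774, 2.39] at 24 h, 0.862 [0.473, 1.59] at 48 h and 0.464 [0.227, 0.854] at P14.

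The Id genes each took their own course. Id1 (chromosome 2, 152736251 to 152737410), often used as the first readout of BMP signalling, was at 3.00 CPM [2.15, 4.09] in hepatocytes of the control library from 40 UMIs. It was at 75.1 CPM [71.3, 79.1] at 24 h, 11 [9.66, 12.6] at 48 h, 11.8 [10.1, 13.8] at 96 h and 4.35 [3.86, 4.89] at P14. It was 25.0-fold higher at 24 h and past 2-fold higher at 48 h and 96 h (log2 4.25, 1.59 and 1.68). The thinned share with Id1 was 21.7% [19.4, 24.2] at 24 h, against 1.08, 4.03, 3.76 and 1.14% in the control library, at 48 h, at 96 h and at P14 (unthinned 55.4, 3.46, 20.7, 15.7 and 9.54%).

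Id1 was not particular to hepatocytes. At 24 h immune barcodes held it at 73.3 CPM, endothelial barcodes at 358 CPM and empty droplets at 117 CPM. The adult control values in those 3 classes were 3.41, 81.4 and 2.84 CPM, so all 4 classes were higher at 24 h. With the mean empty droplet subtracted the 24 h log2 ratio in hepatocytes was 4.21. Thinned to 700 UMIs, 5.71% of immune barcodes held Id1 at 24 h. Id1 was higher in dividing hepatocytes, at 145 against 56.5 CPM at 24 h (ratio 2.56 [2.27, 2.88]) and 16.7 against 3.49 CPM at 48 h (ratio 4.77 [3.1, 7.66]). In non-dividing hepatocytes alone the 48 h log2 ratio over the adult control was 0.14, while the log2 ratios of 24 h and 96 h were 3.82 and 1.62. At 96 h the ratio of dividing to non-dividing was 1.25 with an interval that held 1 [0.776, 1.95].

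Id2 (chromosome 12, 25093799 to 25096092) went the other way. It was at 608 CPM [595, 621] in the control library, 426 [417, 435] at 24 h, 178 [172, 184] at 48 h, 369 [359, 380] at 96 h and 135 [133, 138] at P14, below the adult control in all 4. It was past 2-fold lower at 48 h and P14 (log2 −1.77 and −2.16). Thinned shares were 86.7, 79.7, 47.3, 69.6 and 36.6% (unthinned 98.8, 98.5, 94.3, 98.1 and 93.6%), beside 33.4, 21.5, 20.3, 13.0 and 17.0% of immune barcodes thinned to 700 UMIs.

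Id3 (chromosome 4, 136143822 to 136145392) was at 55.7 CPM [51.8, 59.9] in the control library, 155 [149, 160] at 24 h, 31.8 [29.4, 34.3] at 48 h, 69.3 [64.9, 73.9] at 96 h and 1.47 [1.19, 1.80] at P14. It was past 2-fold higher at 24 h (log2 1.46) and 37.9-fold lower at P14. Empty droplets held more Id3 than hepatocytes in all 5 libraries, at 58.2, 272, 66.6, 113 and 7.01 CPM. With them subtracted the 24 h log2 ratio was 1.42. The thinned share of hepatocytes with Id3 was 17.0% in the control library, 43.0% at 24 h, 11.5% at 48 h and 18.7% at 96 h (unthinned 46.4, 85.6, 49.9 and 60.2%), beside 2.92, 7.43, 4.00 and 7.59% of immune barcodes at their lower thinned depth. Its thinned share at P14 was 0.380% (unthinned 2.61%), below the 4.50% of P14 immune barcodes at their lower thinned depth, which held Id3 themselves at 106 CPM; P14 endothelial barcodes held it at 368 CPM. In dividing P14 hepatocytes Id3 was higher than in non-dividing ones, with a ratio of 3.45 [2.14, 5.45] from 30 and 58 UMIs. At 24, 48 and 96 h that ratio was 0.945 [0.856, 1.04], 0.897 [0.749, 1.07] and 1.08 [0.886, 1.30], with intervals that held 1. In the control library Id3 was higher in the pericentral than in the periportal group (70.2 against 35.9 CPM, ratio 1.96 [1.61, 2.38]). The ratio was 1.01 [0.925, 1.11] at 24 h, 1.10 [0.910, 1.34] at 48 h, 1.35 [1.15, 1.59] at 96 h, where that of Hamp was below 1, and 0.536 [0.305, 0.918] at P14.

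Among the inhibitory SMADs, Smad7 was at 14.7 CPM [12.7, 16.9] in the control library, 26.9 [24.6, 29.3] at 24 h, 9.17 [7.91, 10.6] at 48 h, 11.5 [9.79, 13.5] at 96 h and 12.8 [11.9, 13.7] at P14. Its 24 h interval lay above the others, but the ratio was short of 2-fold (log2 0.83). Over all hepatocyte barcodes Smad7 was past 2-fold at no time. In non-dividing barcodes alone it was past 2-fold lower at 48 h, at 6.26 CPM against 14.9 CPM in the control library. Smad7 was higher in dividing hepatocytes at 48 h (ratio 1.83 [1.28, 2.66]), 96 h (2.06 [1.37, 3.04]) and P14 (1.81 [1.5, 2.17]), while the interval at 24 h held 1 (1.16 [0.920, 1.45]). Smad6 (chromosome 9, 63953076 to 64022085) was under 5 CPM in hepatocytes of all 5 libraries, from 0.774 to 2.78 CPM and 17 to 50 UMIs, and was not compared. In endothelial barcodes it was at 105, 104, 111, 151 and 17.6 CPM.

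Of the 7 targets 6 reached 5 CPM at 24 h, with 3 higher (Hamp, Id1, Id3) and 1 lower (Hamp2) past 2-fold. Of 9028 hepatocyte genes tested the same way 8.51% were higher and 7.13% lower (15.6% in either direction), and the median log2 ratio was 1.14 for the targets and −0.00 for all genes. At 48 h 2 of 6 were higher (Hamp, Id1) and 2 lower (Hamp2, Id2), against 8.30% and 7.63% of 9035 genes (15.9%), with medians of −0.71 and −0.08. At 96 h 3 of 6 were higher (Hamp, Hamp2, Id1) and 0 lower, against 4.07% and 1.88% of 8890 genes (5.95%), with medians of 0.99 and 0.04. At P14 0 of 5 were higher and 4 lower (Hamp, Hamp2, Id2, Id3), against 7.89% and 13.8% of 9011 genes (21.7%), with medians of −2.16 and −0.26. Hamp and Id1 were the targets past 2-fold higher at all 3 times after PHx, and the 4 comparisons share the adult control library. In non-dividing hepatocytes alone neither was past 2-fold at 48 h (log2 0.96 and 0.14), where 0 targets were higher and 3 lower (Hamp2, Id2 and Smad7, at −1.65, −1.65 and −1.13).

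Other lists also moved in the hepatocyte barcodes. Of the 17 dissociation genes 13, 13, 14 and 12 reached 5 CPM, and 1 was higher and 2 lower at 24 h, 3 and 2 at 48 h, 4 and 1 at 96 h, and 1 and 4 at P14, beside the shares of all genes just given; they summed to 1181 CPM in the control library and to 1416, 1472, 1415 and 808 CPM. The 7 cholangiocyte markers summed to 35.6 CPM in the control library and to 102, 45.1, 188 and 46.8 CPM, nearly all of it Spp1 and Sox9, while the defining Epcam and Krt19 were at 0.418 CPM or less in all 5 libraries. The part of these lists in the target levels was not tested.

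Of 9 other BMP targets 3 reached 5 CPM in hepatocytes. Of these 1 was higher and 1 lower at 24 h, 0 and 1 at 48 h, 1 and 1 at 96 h, and 1 and 1 at P14, with median log2 ratios of −0.30, −0.73, 0.24 and −0.87. With 3 genes these counts cannot be set apart from the shares of all hepatocyte genes given for the 7 targets. Hes1, a transcription factor that also answers Notch, was the higher one, at 10.6, 40.2, 22.1, 56.1 and 29.3 CPM from the control library to P14. The lower one was Smad9 at 24 h and 48 h and Atoh8 at 96 h and P14, both at 13.5 CPM or less in all 5 libraries.

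In endothelial barcodes, which also answer BMP ligands, the targets had other levels. Id1 was at 81.4, 358, 162, 224 and 54.1 CPM, and Id3 at 496, 782, 708, 720 and 368 CPM, in the control library, at 24, 48 and 96 h and at P14. Smad7 was at 124, 193, 153, 189 and 88.2 CPM. Of these 3 genes, Id1 was past 2-fold higher at 24 h and 96 h (log2 2.12 and 1.45), against 15.8% and 16.4% of all endothelial genes. Id2 was at 461, 376, 147, 334 and 148 CPM in the same order of libraries. It was past 2-fold lower at 48 h and P14 (log2 −1.65 and −1.64), against 14.8% and 19.1% of all endothelial genes. Smad6 was past 2-fold lower at P14 (log2 −2.50). These CPM levels were not scaled to the 7 endothelial markers, which summed to 2247 CPM at P14 against 7131 CPM in the control library. Beside 2037 marker UMIs at P14 and 1839 in the control library, Id2 had 134 and 119 UMIs and Smad6 had 16 and 27. The part of the lower marker sum in these P14 levels was not tested. Split by a Wnt2, Wnt9b or Rspo3 UMI, Id1 at 24 h was at 567 CPM in endothelial barcodes with one and 150 CPM in those without, at median depths of 3169.5 and 1555 UMIs. The ratio was 3.79 [2.78, 5.25] at 24 h, 19.8 [6.51, 98.4] at 48 h, on 3 UMIs without, and 8.61 [4.31, 18.7] at P14; the intervals of the control library (1.41 [0.506, 3.66]) and of 96 h (0.890 [0.541, 1.44]) held 1. Per 1000 endothelial marker UMIs Id1 was at 66.6 with and 43.3 without at 24 h, and at 22.0 and 55.8 at 96 h, the opposite order. On that scale it was at 22.6 and 8.26 at 48 h, 27.2 and 17.1 at P14, and 10.8 and 11.9 in the control library. Smad7 was at 39.4 and 38.9 at P14 against 13.5 and 20.1, so Id1 and Smad7 were higher at P14 in both classes. Id3 was at 215 and 53.0 at P14 against 61.9 and 74.8, and Smad6 at 10.0 and 3.12 against 4.04 and 21.9. Id4, another inhibitor of the family, was at 31, 46.3, 124, 72.6 and 18.8 CPM in endothelial barcodes. Hamp in endothelial barcodes was at 151, 876, 1241, 694 and 0 CPM, beside the free RNA given above and the barcodes that also met the hepatocyte rule.

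Genes of iron handling and of the acute phase were read in the same hepatocytes. Of 18 iron genes at 5 CPM, 4 were higher and 1 lower at 24 h, 3 and 1 at 48 h, 0 and 0 at 96 h, and 3 and 5 at P14. All hepatocyte genes were past 2-fold higher in 8.51, 8.30, 4.07 and 7.89% of cases and lower in 7.13, 7.63, 1.88 and 13.8%, in that order. Slc40a1, the exporter ferroportin that hepcidin blocks, was at 61.0, 27.1, 31.2, 84.2 and 126 CPM in the control library, at 24, 48 and 96 h and at P14, past 2-fold lower at 24 h and higher at P14. Tfrc, the transferrin receptor of dividing and iron-poor cells, was at 15.5, 54.0, 28.2, 26.0 and 165 CPM. Transferrin (Trf) was at 27325 CPM at P14 against 9387 CPM in the control library, while haemopexin (Hpx), the haem carrier, was highest at 48 h, at 14281 against 4098 CPM. Fgl1, a hepatokine that binds BMP6, was at 316, 944, 1633, 561 and 570 CPM.

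Of 11 genes of the interleukin 6 and STAT3 list, 5 were higher and 0 lower at 24 h, 5 and 1 at 48 h, 1 and 2 at 96 h, and 1 and 4 at P14, beside the shares of all genes just given. Saa1 was at 2029, 17157, 24977, 879 and 20.2 CPM, Saa2 at 1365, 20968, 31492, 856 and 5.44 CPM, and Orm2 at 71.2, 1640, 2297, 74.5 and 0.976 CPM; these are acute phase proteins of the liver. Lcn2, which binds bacterial iron carriers, was at 72.3, 4874, 3307, 229 and 51.3 CPM. At 96 h the log2 ratios of Saa1, Saa2 and Orm2 over the adult control were −1.21, −0.67 and 0.06, while that of Lcn2 was 1.65, beside 1.67 for Hamp. Across barcodes of 1 library thinned to 1 depth, the rank correlation of Hamp with the sum of Saa1 and Saa2 was 0.33 at 24 h (1170 barcodes), 0.28 at 48 h (719), and 0.08 in the control library and at 96 h (925 and 771). With Id1 it was 0.08 in the control library and 0.16, −0.06 and 0.03 at 24, 48 and 96 h. With Id2, Id3 and Smad7 it lay between −0.04 and 0.08 in these libraries. Id1, Id3 and Smad7 were far scarcer than Saa1 and Saa2, and sparse counts weaken such a correlation.

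Of 3379 genes that reached 50 CPM in hepatocytes of some library, the nearest to Hamp in log2 (CPM + 1) profile over the 5 libraries, each centred on its mean, were Wfdc21, Orm1 and Mup21, with root mean square differences of 0.91, 0.99 and 1.24. For Hamp2 they were Onecut1, Car3 and Gas2 (1.07, 1.15 and 1.17), with Car3 at 2589 CPM in the control library, 194 and 282 CPM at 24 h and 48 h, 2573 CPM at 96 h and 270 CPM at P14. For Id1 they were Btg3, D10Wsu102e and Ccnd1 (0.60, 0.69 and 0.71), with the cell cycle gene Ccnd1 at 25.5, 369, 141, 101 and 106 CPM in the control library, at 24, 48 and 96 h and at P14. No neighbour of Hamp named here was also named for Hamp2 or Id1. Lists this short from 3379 genes would rarely share a gene, so this does not set the profiles apart.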

How the data were processed

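Raw UMI counts per gene and barcode were deposited by the authors as 1 unfiltered matrix per library. Demultiplexing with bcl2fastq 2.17.1.14, Cell Ranger, Seurat 3.1 and the mm10 build are named in the submitters' processing notes; the steps run with Seurat are not given in the sources used here, and no cell annotation was used. Barcodes were classed by the stated rules, counts were summed per class and library, and CPM, exact Poisson and Clopper-Pearson 95% intervals and log2 ratios with 1 CPM added were computed in Python 3.11.15 (numpy 2.4.6, scipy 1.17.1, pandas 2.3.3); edgeR 4.0.16 gave alternative scaling factors only. Thinning drew 3500 (hepatocyte) or 700 (other) non-mitochondrial UMIs per barcode without replacement. No doublet caller was run; alternatives leave out barcodes with markers of another class. The procedure was tested on simulated counts. The 9 genes and all gene lists were chosen with earlier results of these data known. Besides them, named genes are up to 4 per list with the largest ratio past 2-fold at 20 CPM or more in either library, genes fixed by name (Tmprss6, Hfe2 for hemojuvelin, Tfr2, Bmpr1a, Smad1, Smad4, Slc40a1), and 3 profile neighbours of Hamp, Hamp2 and Id1; Bmp4, Smad9, Atoh8, Spp1, Sox9, Epcam, Krt19, Cd5l, C1qa, C1qb, Clec4f, Timd4, Xist and Ddx3y are named beside results they touch. Promoter windows and gene positions came from RefSeq tables, and the Hamp and Hamp2 transcripts from GENCODE M21. Windows and transcripts were aligned with Biopython 1.88. Counts over the list of BMP antagonists are not reported here.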

Additional observations from a re-analysis of the deposited data

How the results depend on the processing

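With 1 library per group no library could be left out. No paired analysis was possible because each group has 1 library and no replicate numbers. Of the counts of genes past 2-fold under the alternatives, 113 stayed within 1.5 times the reported count and 8 moved. Of the log2 ratios of single genes 398 lay within the counting interval of the ratio without 1 CPM added. Another 162 lay outside it and 2 lost their sign. Some reported values, with 1 CPM added, lay outside that interval themselves, such as Hamp at P14 (log2 −8.43, interval −11.6 to −10.1). The 162 are thus not a count of departures from the reported values. In hepatocytes the 48 h count of 4 became 2 with Alb, Apoa1 and Ttr at 5% or more and 2 with 10 CPM added. In endothelial barcodes the 24 h count of 1 became 0 with 10 CPM added and 0 without the deepest 5% of barcodes, the 96 h count of 0 became 1 with free RNA subtracted, and the P14 count of 2 became 1 without barcodes of 5% or more Alb, Apoa1 and Ttr, 1 with mean CPM per barcode and 1 per endothelial marker UMIs. In non-cycling barcodes the 48 h hepatocyte split of 2 higher and 2 lower became 0 and 3. In endothelial barcodes the 24 h call passed from a lower Bmp6 to a higher Bmp2 with mean CPM per barcode, per endothelial marker UMIs and without barcodes that met the hepatocyte rule. Those 2, both past 2-fold as reported, were at 48 h with 5% or more hepatocyte markers: Hamp turned to log2 −0.32 and Id1 fell to 0.00; that alternative kept 47 barcodes in the adult control and 2 at 48 h. Of values short of 2-fold 9 changed sign: Smad7 at 24 h (−0.45) and Id3 at 48 h (0.49) in the same alternative, Id1 at P14 (−0.00) with 0 immune and endothelial markers, Smad7 at P14 with TMM (0.07) and median-of-ratios factors (0.05), Bmp6 at 48 h without barcodes of the hepatocyte rule (0.09), and Bmp2 at 96 h with at least 2000 UMIs (−0.00), free RNA subtracted (−0.42) and the empty droplet subtracted (−0.19). Over 17 settings for Hamp, the reported one included, and in the order 24 h, 48 h, 96 h and P14, the Hamp log2 ratio ranged from 0.74 to 2.88, −0.32 to 1.91, 0.94 to 2.45 and −10.3 to −5.42, and over 15 or 16 settings those of endothelial Bmp2 were 0.38 to 1.43, 0.77 to 2.19, −0.42 to 0.36 and −2.85 to −0.45. The alternative scaling free RNA to all hepatocyte marker UMIs was not run for the endothelial comparisons at 24 h, 48 h and P14, where it would remove more than 90% of UMIs. Alternatives per endothelial marker UMIs, without barcodes that met the hepatocyte rule, with 0 immune and endothelial markers, and with the empty droplet subtracted from endothelial barcodes were added after seeing the data.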
